A study of Mus musculus with 2 samples.

Results

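The IAP elements examined here are the IAPEY, IAPLTR3 and IAPLTR4 types. They were taken as every row of the deposited repeat tables whose name begins with IAP but not with IAPEz, IAPLTR1 or IAPLTR2, which gave 9 of 952 repeat types. Of these, 4 are internal rows (IAPEy-int, IAPEY3-int, IAPLTR3-int and IAPLTR4_I) and 5 are long terminal repeat (LTR) rows (IAPEY_LTR, IAPEY2_LTR, IAPEY3_LTR, IAPLTR3 and IAPLTR4). The internal and LTR rows form 4 named subtypes, IAPEY, IAPEY3, IAPLTR3 and IAPLTR4, and IAPEY2_LTR has no internal partner in the tables.

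The study mapped H3.3S31ph, the form of histone variant H3.3 that carries a phosphate on serine 31, in mitotic mouse embryonic stem (ES) cells. Wild-type cells of strain 129S1/SvImJ, below passage 20 by the labels' notation, were arrested for 12 hours by 9 µM RO-3306, which blocks the kinase CDK1 and so entry into mitosis, and collected 11 hours after release. There was 1 sample precipitated with an H3.3S31ph antibody and 1 input sample of the same chromatin preparation protocol without antibody, each read in 2 sequencing lanes. All cells were synchronised, so no interphase group stands beside them, and the labels give neither the purity of the mitotic harvest nor the sex of the line.

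IAP stands for intracisternal A particle, a family of ERVK endogenous retroviruses in rodents. The internal part holds the retroviral genes, and the LTRs at both ends carry the promoter and the polyadenylation signal. Recombination between the LTRs of a copy leaves a solitary LTR, so LTR and internal reads need not come from the same copies. In ES cells IAP elements are repressed through TRIM28 and the enzyme SETDB1, which places H3K9me3. H3.3 is deposited at such heterochromatin by ATRX and DAXX. The IAPE types were described as IAP relatives that carry an envelope gene, and some copies were found amplified on the Y chromosome.

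The tables held 12235477 ChIP and 8856751 input reads over both lanes. Every value below is a ratio: the percentage of all ChIP reads in the tables that a repeat takes, divided by the percentage it takes of the input reads. A ratio of 1 is the input level. Shares add up to a fixed total, and the median of the 704 repeats with at least 100 input reads had a ratio of 0.805. This repeat level is called the median repeat. With 1 sample a group there was no test between conditions. All brackets hold 95% intervals of counting error, which treat reads as independent and do not cover the spread between cultures.

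Ratios of H3.3S31ph over these elements were close to or slightly above the input level. All 9 rows passed the read minimum, with 714 to 20933 input reads each, and their ratios ran from 1.00 to 1.46. The interval lay above 1 for 6 of the 9, 3 internal and 3 LTR rows, against 7.81% of all analysed repeats. None of the 9 had an interval below 1, whereas 79.5% of all analysed repeats did. All 9 had an interval wholly above the median repeat, against 27.3% of analysed repeats. The ratios of 8 exceeded the median repeat by 25% or more, against 11.1%. Only IAPLTR4_I exceeded the input level by 25% or more, which 4.12% of analysed repeats did. The median log2 ratio was 0.15 for the 9 rows and -0.31 for all analysed repeats. The count above 1 depended on the scale. It was 9 with the median repeat set to 1, against the 27.3% of analysed repeats given above, and 4 when the 5 repeats most abundant in the input were left out of the totals, against 6.25%. How reads that match more than one repeat type were counted is not known here. IAPEz-int, a related sequence, had 542783 ChIP reads at a ratio of 2.73, so a small part of its reads counted under these rows could raise their ratios, which was not tested.

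**Figure D1:**
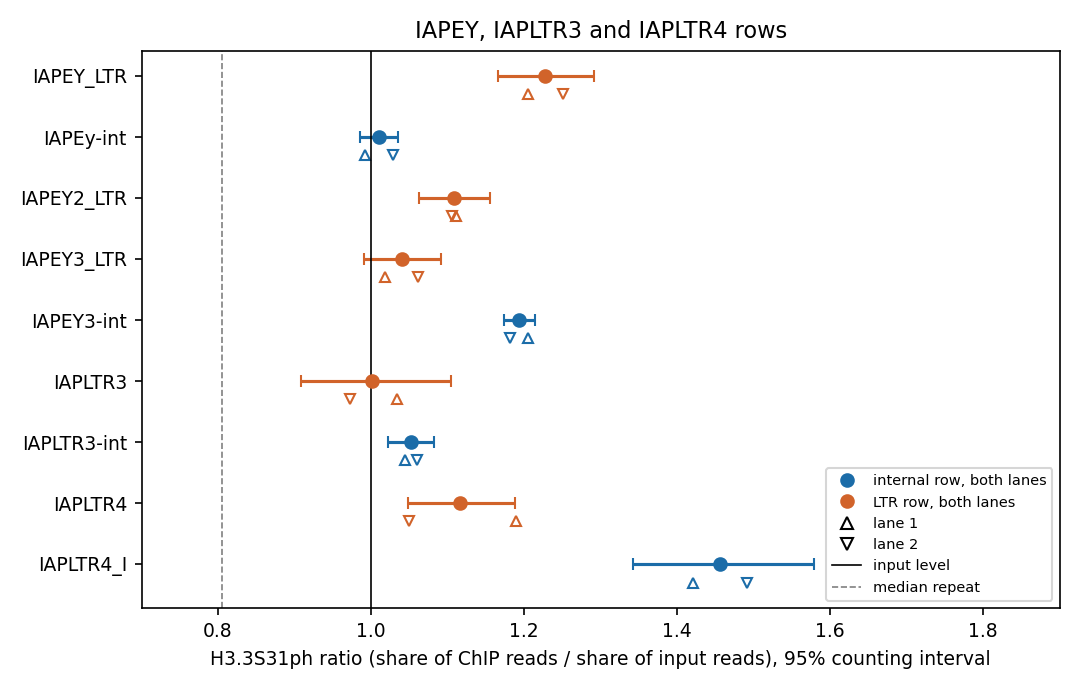
Ratio of each of the 9 IAP rows on the x axis. Filled points are both lanes with 95% counting intervals, open triangles are single lanes, blue marks internal rows and orange LTR rows, the solid line is the input level and the dashed line the median repeat at 0.805. IAPLTR4_I stands highest at 1.46, and no interval reaches down to the median repeat.

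Among the internal sequences, which hold the retroviral genes, IAPEY3-int was the most abundant of the 9, with 17535 ChIP and 10472 input reads in lane 1 and 16987 and 10461 in lane 2. Its ratio was 1.19 (1.17 to 1.21), the eighth of 55 analysed internal rows of the table, and the narrow interval lay wholly above the input level. The lanes gave 1.21 and 1.18.

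IAPEy-int had 7744 ChIP and 5619 input reads in lane 1 and 7816 and 5528 in lane 2. At 1.01 (0.986 to 1.04) it was not separable from the input level, although it lay above the median repeat by a log2 ratio of 0.33. The lanes fell on either side of the input level, at 0.992 and 1.03. Without the 5 repeats most abundant in the input its interval lay below the input level, at a log2 ratio of -0.054 (-0.089 to -0.019).

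IAPLTR3-int, the internal sequence of elements with IAPLTR3 ends, had 5979 ChIP and 4123 input reads in lane 1 and 5853 and 4018 in lane 2. Its ratio of 1.05 (1.02 to 1.08) was just above input, with 1.04 and 1.06 in the lanes. On the scale without the 5 repeats most abundant in the input, its log2 ratio was 0.0042 (-0.037 to 0.045), so the excess over input rested on the scale.

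IAPLTR4_I was the least abundant internal row and had the highest ratio. It had 882 ChIP against 447 input reads in lane 1 and 916 against 447 in lane 2. The ratio was 1.46 (1.34 to 1.58), with 1.42 and 1.49 in the lanes, and it was the third of the 55 internal rows and stood at rank 16 of all 704 repeats. The repeats nearest to it in ratio were the satellite ZP3AR at 1.46 and the retroviral LTR ERVB7_1-LTR_MM at 1.45.

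Apart from IAPLTR4_I, the internal rows lay between 1.01 and 1.19. The LTR rows, the promoter ends, ran from 1.00 to 1.23. IAPEY_LTR had 2082 ChIP and 1244 input reads in lane 1 and 2003 and 1166 in lane 2. With a ratio of 1.23 (1.17 to 1.29) it was the highest of the 5, and its log2 ratio was 0.27 in lane 1 and 0.32 in lane 2, above input in both. A gammaretroviral internal sequence, MMERGLN-int, had a ratio next to it, at 1.22.

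IAPLTR4 had 1300 ChIP and 787 input reads in lane 1 and 1261 and 874 in lane 2. Its ratio was 1.12 (1.05 to 1.19) over both lanes. It was 1.19 in lane 1 and 1.05 in lane 2, a log2 difference of 0.18 (0.0011 to 0.36). Of the 9 rows, IAPLTR4 alone had a lane difference whose interval excluded equality, with a lower bound close to equality. This was not adjusted for the number of rows, and no share over all analysed repeats stands beside it. In lane 2 alone the interval of the IAPLTR4 ratio, 0.963 to 1.15, included the input level. So did its log2 interval, -0.00020 to 0.18, when the 5 repeats most abundant in the input were left out of the totals.

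IAPEY2_LTR, the row without an internal partner, had 2878 ChIP and 1866 input reads in lane 1 and 2806 and 1847 in lane 2. The ratio of 1.11 (1.06 to 1.16) was above input, and the lanes gave nearly the same value, 1.11 and 1.11. IAPEY3_LTR had 1988 ChIP and 1405 input reads in lane 1 and 2028 and 1390 in lane 2. Its ratio was 1.04 (0.991 to 1.09), which was not separable from input, with 1.02 and 1.06 in the lanes.

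IAPLTR3, the rarest of the 9 rows, had 484 ChIP and 337 input reads in lane 1 and 504 and 377 in lane 2. The ratio was 1.00 (0.909 to 1.10), and the lanes fell on either side of input at 1.03 and 0.973. At this depth an excess of up to the upper bound could not be told from the input level. It was nevertheless above the median repeat, by a log2 ratio of 0.32.

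Ordered by ratio, the rows ran IAPLTR4_I, IAPEY_LTR, IAPEY3-int, IAPLTR4, IAPEY2_LTR, IAPLTR3-int, IAPEY3_LTR, IAPEy-int and IAPLTR3. Of the 8 steps between neighbours in this order, which the same ratios set, 3 had an interval that excluded equality. IAPLTR4_I stood above IAPEY_LTR by 1.19-fold (1.08 to 1.30). The other steps had lower bounds close to equality. IAPEY3-int stood above IAPLTR4 by 1.07-fold (1.003 to 1.14), and IAPEY2_LTR above IAPLTR3-int by 1.05-fold (1.002 to 1.11). Over all 36 pairs of rows the interval of the difference excluded equality in 24, with no adjustment for the number of pairs. No share over pairs of other repeats stands beside these counts. IAPLTR4_I differed from all 8 other rows, whereas the 3 lowest rows did not separate from one another.

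Within subtypes, the internal and LTR rows differed in opposite directions. The internal row was higher in IAPLTR4 and IAPEY3, the LTR row was higher in IAPEY, and IAPLTR3 showed no separable difference. The library totals cancel in this comparison, so it does not depend on the scale between ChIP and input.

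In IAPLTR4 the internal ratio of 1.46 was 1.30-fold (1.18 to 1.44) that of the LTR at 1.12. The log2 difference, internal minus LTR, was 0.38 (0.24 to 0.53), with 0.26 in lane 1 and 0.51 in lane 2. Both lanes placed the internal row higher. The spread between them holds the lane difference of the IAPLTR4 row given above and that of IAPLTR4_I. The latter went the other way, at -0.070 (-0.30 to 0.16) for lane 1 minus lane 2. This subtype was also the one dominated by LTR reads, which made up 65.0% (63.1 to 66.9) of its input reads and 58.8% (57.3 to 60.2) of its ChIP reads.

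In IAPEY3 the internal ratio of 1.19 was 1.15-fold (1.09 to 1.21) that of the LTR at 1.04, a log2 difference of 0.20 (0.12 to 0.27). The lanes gave 0.24 and 0.15, both with intervals above 0. LTR reads were 11.8% (11.4 to 12.2) of the input reads of this subtype and 10.4% (10.1 to 10.7) of its ChIP reads.

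IAPEY went the other way. The LTR ratio of 1.23 was 1.21-fold (1.15 to 1.28) that of IAPEy-int at 1.01, and the log2 difference of internal minus LTR was -0.28 (-0.36 to -0.20). The lanes agree within counting error, at -0.28 in each. LTR reads made up 17.8% (17.1 to 18.4) of input reads and 20.8% (20.2 to 21.4) of ChIP reads.

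For IAPLTR3 the internal ratio of 1.05 and the LTR ratio of 1.00 gave a log2 difference of 0.071 (-0.074 to 0.22). The LTR share was 8.06% (7.50 to 8.65) in the input and 7.71% (7.25 to 8.18) in the ChIP. The interval allows the internal row to lie as much as 1.16-fold above the LTR row or slightly below it.

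**Figure D2:**
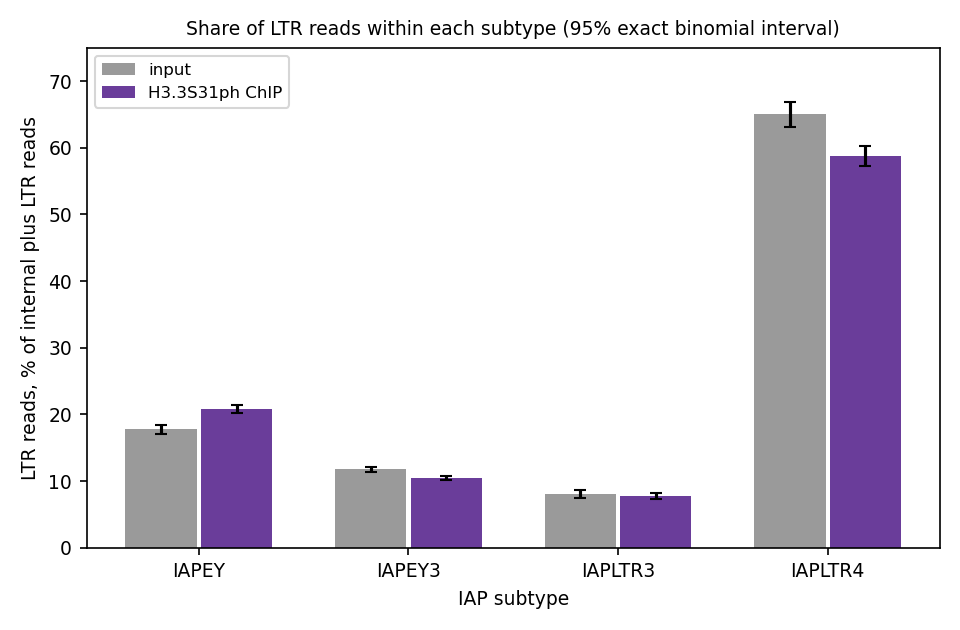
LTR reads as a percentage of internal plus LTR reads of each IAP subtype on the y axis, in input (grey) and H3.3S31ph ChIP (purple), both lanes summed, with 95% exact binomial intervals. The LTR share is higher in the ChIP for IAPEY (20.8% against 17.8%) and lower for IAPEY3 and IAPLTR4.

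The subtypes differed from one another in this respect. Of the 6 pairs of subtypes, 5 had a difference between their internal-minus-LTR values whose interval excluded 0. The largest was that of IAPLTR4 over IAPEY, where IAPEY minus IAPLTR4 was -0.66 (-0.83 to -0.50) on the log2 scale. IAPEY3 and IAPLTR3 were not separable, at 0.13 (-0.035 to 0.29). The count was not adjusted for the number of pairs, and no share over pairs of other families stands beside it.

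Pooling hid these differences. The 4 internal rows, with 41115 input reads, had a joint ratio of 1.12 (1.11 to 1.14), and the 5 LTR rows, with 11293, one of 1.11 (1.08 to 1.14). The pooled log2 difference was 0.014 (-0.025 to 0.052). The pool was weighted towards IAPEY3-int: without it and without IAPEY2_LTR, the most abundant row of each kind, the internal rows were at 1.05 and the LTR rows at 1.11, a log2 difference of -0.088 (-0.14 to -0.039). In lane 2 alone that difference was -0.061 (-0.13 to 0.0086), whose interval included 0.

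Other repeat families with an internal and an LTR row of the same name gave a background for this comparison. There were 23 such pairs, among them gammaretroviral and MaLR elements. Internal and LTR row differed beyond counting error in 13 of them, or 56.5%, and in 3 of the 4 IAP subtypes. Beyond counting error, the internal row was the higher one in 2 of the 23, or 8.7%, against 2 of 4 IAP subtypes. The LTR row was so in 11, or 47.8%, against 1 of 4. By sign alone, the internal row was higher in 5 of the 23 and in 3 of the 4 IAP subtypes. The median log2 difference of the 23, internal minus LTR, was -0.090, and that of the 4 IAP subtypes was 0.13. The highest difference among the 23 pairs was that of RLTR10, an ERVK element, at 0.18 (0.14 to 0.22). The lowest was that of RLTR1B at -0.45 (-0.51 to -0.39). The pairing rule took partners named alike with or without _LTR. With partners that end in -LTR or _Mm also taken, an alternative chosen after seeing the data, 2 pairs were added: RLTR6, a gammaretroviral element, at 0.39 (0.33 to 0.45) and MURVY at -0.36 (-0.44 to -0.29). Beyond counting error, the internal row was then the higher one in 3 of 25 pairs and the LTR row in 12. The value of IAPEY, -0.28, lay inside the range of the 23 pairs, so its size was not particular to IAP elements. IAPLTR4 at 0.38 and IAPEY3 at 0.20 lay above all 23, although the interval of MER34, 0.15 (-0.13 to 0.43), overlapped both of theirs. The interval of IAPEY3 also overlapped those of RLTR10, MER68, LTR52 and RMER17A. Among the 25 pairs of the wider rule, only 1, RLTR6, reached the value of IAPLTR4. Both rules left out families whose internal and LTR rows carry other names. RLTR44-int, for one, had a ratio of 1.28, with RLTR44A to RLTR44E from 0.906 to 1.10. MMETn-int had 1.32 and RLTRETN_Mm, an LTR row with a similar name, 0.969. MTE-int went the other way, at 0.763 below MTEa at 0.796 and MTEb at 0.773. How many such families went each way was not counted.

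**Figure D3:**
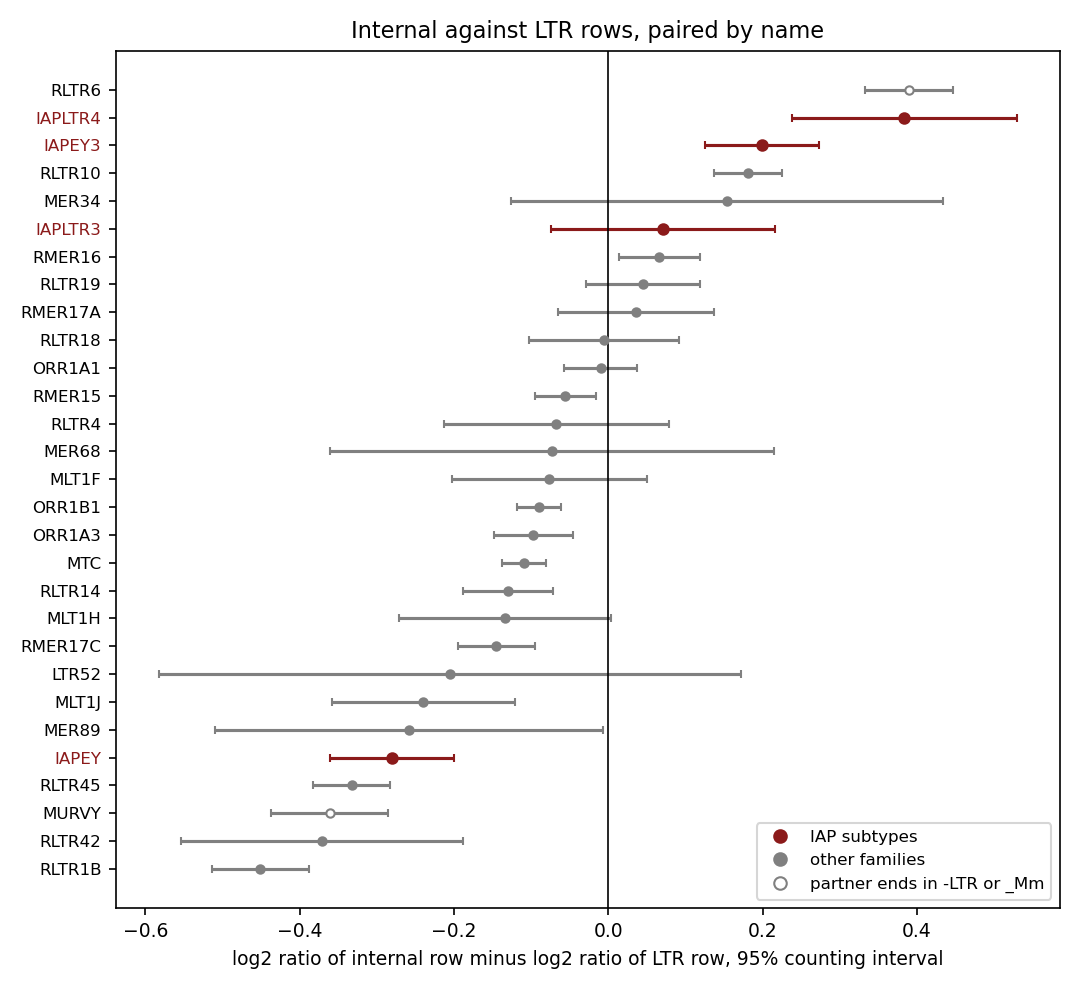
Log2 ratio of the internal row minus that of the LTR row on the x axis, for each repeat with both rows under one name, with 95% counting intervals. Red marks the 4 IAP subtypes, filled grey the 23 other families and open grey the 2 pairs added by the wider name rule. RLTR6 and IAPLTR4 are the topmost points at 0.39 and 0.38, and IAPEY lies at -0.28.

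The IAPEz, IAPLTR1 and IAPLTR2 rows are the nearest relatives by name. The division between them and the 9 rows was made with the ratios known, so the gap is given as a description only. The 9 rows held 25.1% of IAP input reads and 12.2% of IAP ChIP reads, and their share of all reads in the tables was 0.592% (0.587 to 0.597) in the input and 0.662% (0.658 to 0.667) in the ChIP. Pooled, they had a ratio of 1.12 (1.11 to 1.13), against 2.70 (2.68 to 2.71) for the 6 relatives, a 2.41-fold difference (2.38 to 2.44). The gap was 2.43-fold (2.40 to 2.47) between IAPEz-int and the pooled internal rows and 2.08-fold (2.02 to 2.15) between the IAPLTR1 and IAPLTR2 pool and the pooled LTR rows. The highest of the 9, IAPLTR4_I at 1.46, lay below the lowest of the relatives, IAPLTR2b at 1.81 (1.72 to 1.91).

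**Figure D4:**
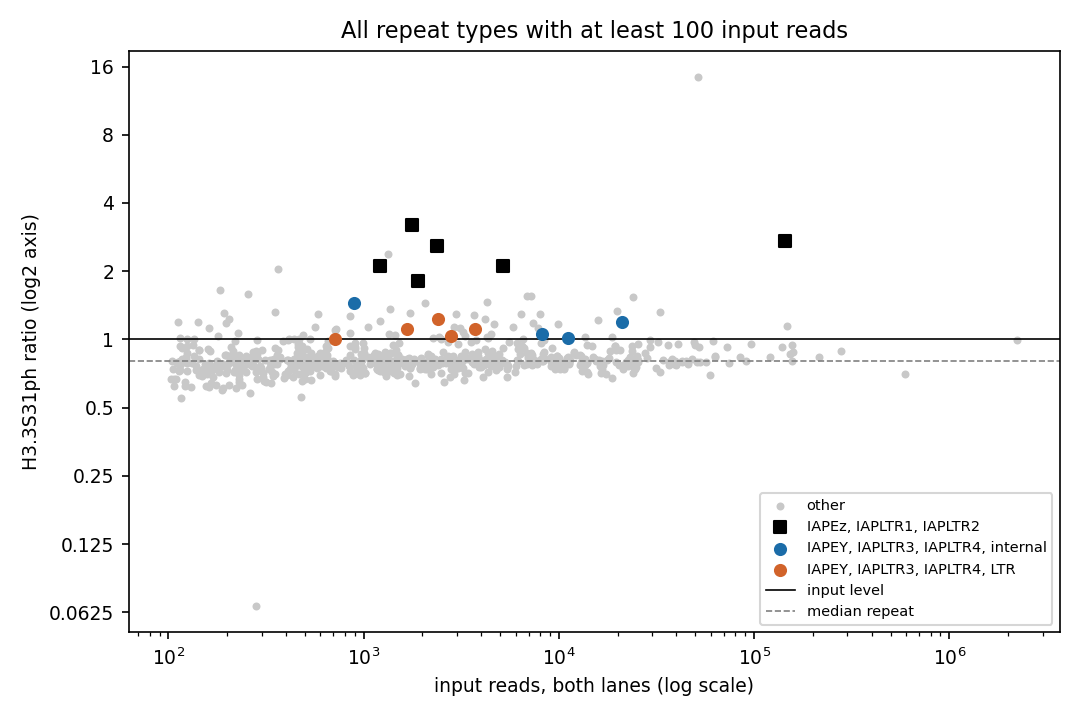
Ratio (y, log2 axis) against input reads (x, log axis) for the 704 repeats with at least 100 input reads. Blue and orange points are the internal and LTR rows of the IAPEY, IAPLTR3 and IAPLTR4 types, black squares the IAPEz, IAPLTR1 and IAPLTR2 rows, grey points all others. The 9 rows lie between 1.00 and 1.46, above the dashed median repeat at 0.805 and below all 6 black squares.

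IAPE copies on the Y chromosome are known to be amplified there together with MuRVY, a gammaretroviral element. MURVY-int, which lies outside the naming rule and was chosen from that background, had 7848 ChIP and 7324 input reads and a ratio of 0.776 (0.751 to 0.801). Its LTR row MURVY-LTR had 5173 ChIP and 3758 input reads and a ratio of 0.996 (0.955 to 1.04), and the ratio of IAPEY_LTR was 1.23 (1.17 to 1.29). The log2 ratio of IAPEy-int was higher than that of MURVY-int by 0.38 (0.32 to 0.44). The rows carry no positions, so how many reads of either came from the Y chromosome was not analysed here.

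The authors' deposited table gives its own log2 ratios per lane, on a scale with another constant. For IAPLTR4_I the authors' deposited table lists 0.67 in lane 1 and 0.74 in lane 2, and for IAPEY_LTR it lists 0.44 and 0.49. For IAPEy-int the authors' deposited table lists 0.16 and 0.21. Its conservative value, the bound nearer 0 or 0 where the bounds span 0, was above 0 for all 9 rows in lane 1 and for 8 of 9 in lane 2, the exception being IAPLTR3, against 13.3% and 12.9% of all 952 rows of the authors' deposited table.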

How the data were processed

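Reads were counted per repeat type in 1 H3.3S31ph ChIP and 1 input sample. Bowtie 1.0.0 and the build mm9 stand in the submitters' processing notes. The assignment of reads to repeat types, the handling of reads that match more than one type and any removal of duplicates are not given in the sources used here. Deposited tables, 1 per lane, hold raw counts and, per the file headers, the authors' log2 ratio with bounds. By a check of the values, the authors' log2 ratio is that of the counts with 0.5 added, minus 0.31 in lane 1 and 0.29 in lane 2, to within 0.00053.

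Both lanes come from one library per sample, so their counts were added. Lane totals were 6204712 and 6030765 ChIP reads and 4467116 and 4389635 input reads. A ratio is scaled to the table totals and has a 95% exact conditional (Clopper-Pearson) interval. A difference between 2 rows has a 95% interval from its 4 counts on the log scale. The intervals cover counting error only and treat each read as independent. No molecular identifiers are described, so they could be too narrow if amplification copies were counted. Internal rows end in int or _I, and a partner LTR row has the same name without that ending, with or without _LTR, upper and lower case not distinguished. All 9 rows were named, with their relatives, the highest and lowest other pair, and near neighbours in ratio. The elements, lists and comparisons were chosen with earlier results of these data known. Alternatives were single lanes, other scales, other read minimums, 1 read added and a rule of at least 25% above input. The interval formulas were checked on simulated independent Poisson counts. These hold no amplification copies, no reads shared between repeat types and no spread between cultures, so the check does not cover such errors. Computation used Python 3.11.15, numpy 2.4.6, scipy 1.17.1 and pandas 2.3.3.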

Additional observations from a re-analysis of the deposited data

How the results depend on the processing

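The scale between the libraries moved the 9 log2 ratios together. It added 0.31 with the median repeat set to 1, 0.17 on the deposited scale and -0.069 without the 5 repeats most abundant in the input. Leaving out the 5 most abundant in the ChIP, an alternative chosen after seeing the data, added 0.20. The median log2 ratio of the 9 rows, 0.15 on table totals, became 0.46 on the median-repeat scale and 0.35 without the 5 most abundant in the ChIP, 0.079 without the 5 most abundant in the input and 0.087 in lane 2 alone. On table totals 6 rows had an interval above 1, over the other scales 4 to 9, and 1 row lay at least 25% above input. For the deposited scale and that without the 5 most abundant in the ChIP, no share over all analysed repeats stands beside the count. A scale cannot change a row's place relative to the median repeat. Of the 9 rows, all those analysed had intervals above it in each lane and at each read minimum tried. At a minimum of 1000 input reads this was 7 of 7. The internal and LTR differences of the 4 subtypes stayed within their intervals in each lane and with 1 read added. A minimum of 1000 input reads left no pair for IAPLTR3 and IAPLTR4. Among other families the internal row was above its LTR row beyond counting error in 1 pair in lane 2 alone, in place of 2. At a minimum of 10 input reads it was so in 3 of 26 pairs. The LTR row was above beyond counting error in 7 pairs in lane 1 alone and in 12 in lane 2 alone, in place of 11. The cause was not tested. No paired analysis was possible because each group has 1 sample.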
